A study of Mus musculus with 10 samples.

Results

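Levels of mmu-miR-208a-3p, mmu-miR-208b-3p and mmu-miR-499-5p were compared between CITED4 knockout hearts and floxed control hearts under pressure load. These miRNAs (miR-208a-3p, miR-208b-3p and miR-499-5p below) were taken from the count table by name, as the miRNAs encoded in introns of the myosin heavy chain genes Myh6, Myh7 and Myh7b, and are 3 of its 1139 mature miRNAs. Small RNA was sequenced in 5 knockout libraries, in which the labels give CITED4 as deleted, and in 5 floxed control libraries, in which the gene carries recombination sites. All came from male C57Bl6N mice whose hearts were collected 1 week after transverse aortic constriction (TAC), surgery that narrows the aorta and raises the pressure against which the left ventricle pumps. The sources used here give neither the driver of recombination nor the ages, and do not say whether each library is a separate animal. A p-value therefore refers to variation among libraries, and this variation may be technical. Hearts without TAC were not analysed here.

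In adult mice, Myh6 encodes the fast alpha myosin heavy chain of the heart, and Myh7 the slow beta chain that predominates in the fetal ventricle and returns under pressure load. Each gene carries a miRNA in an intron, and Myh7b, a related slow myosin gene, carries miR-499. From mouse genetics, miR-208a is known to be needed for the rise of Myh7 under load, and miR-208b and miR-499 to act on slow muscle gene programs. The ratio of miR-208b to miR-208a is used as a readout of the shift between the fetal and the adult myosin gene. Because both are counted in the same library, their ratio does not depend on sequencing depth or scaling. Transcripts of Myh6 and Myh7 were not analysed here, so whether the ratio followed them was not tested.

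The mature sequences are shown because the 3 miRNAs are close relatives, and a reader has to see which bases keep their reads apart. They are from RefSeq (GRCm38.p6), 5′ to 3′, with the seed (bases 2 to 8, the part that pairs with targets) in capitals.
miR-208a-3p: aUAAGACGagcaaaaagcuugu
miR-208b-3p: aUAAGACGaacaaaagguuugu
miR-499-5p: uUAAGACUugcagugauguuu
miR-208a-3p and miR-208b-3p share the seed and 19 of 22 bases. Counted from 1 at the 5′ end, with miR-208a-3p given before miR-208b-3p, they differ by G10A, A16G and C18U. miR-499-5p has bases 2 to 7 in common with both and differs from them in the seed by G8U. Of the miRNAs in the count table, 951 of 1139 had a mature sequence in RefSeq. Among these, no other miRNA had the bases 2 to 7 of the 3.

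The hairpins are shown to place the mature miRNA, in capitals, within its precursor. In the miR-208 hairpins it is the 3′ arm, in the miR-499 hairpin the 5′ arm.
Mir208a: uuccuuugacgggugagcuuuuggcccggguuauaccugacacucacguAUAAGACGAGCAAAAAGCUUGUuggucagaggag
Mir208b: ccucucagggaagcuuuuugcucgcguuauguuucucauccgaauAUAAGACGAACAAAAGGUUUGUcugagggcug
Mir499: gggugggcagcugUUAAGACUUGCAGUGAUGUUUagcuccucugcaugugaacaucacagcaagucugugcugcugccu
Mir208a lies at chr14:54949060-54949142 on the minus strand of GRCm38, in intron 29 of the 38 introns of Myh6 (GENCODE release M21, on the same build). Mir208b lies at chr14:54975700-54975776 on the same strand, in intron 31 of the 40 introns of Myh7, with 26557 bases between the hairpins. Mir499 lies at chr2:155622880-155622958 on the plus strand, in intron 19 of the 41 introns of Myh7b.

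Libraries held 8909932 to 18369483 miRNA counts in knockout hearts and 7526091 to 11608900 in control hearts (exact two-sided permutation test of the means, p = 0.24). Levels are given as CPM, that is, counts relative to library totals scaled by TMM. The muscle miRNA miR-1a-3p was the most abundant, at 299919 ± 77136 CPM in knockout and 351241 ± 122216 CPM in control hearts (SD, n = 5 per group, as for all means here). The skeletal muscle marker miR-206-3p was at 19.5 ± 4.42 CPM in knockout and 18.1 ± 4.47 CPM in control hearts. For the 3 myosin-gene miRNAs, each library held between 1179 and 40190 counts per miRNA. The relative counting error was at most 2.91%, against a coefficient of variation between libraries of 22.8% to 42.0%.

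The 3 miRNAs had the same order of abundance throughout: miR-499-5p exceeded miR-208a-3p in 10 of 10 libraries, and miR-208a-3p exceeded miR-208b-3p in 10 of 10. Reads were counted per mature molecule of 21 to 22 bases, and differences in how well each sequence is captured into a library were not corrected. By level, miR-499-5p ranked 31 to 41 among all miRNAs in knockout libraries and 31 to 37 in control libraries. miR-208a-3p ranked 70 to 92 in knockout and 56 to 97 in control libraries, and miR-208b-3p 96 to 117 in knockout and 106 to 126 in control libraries. In knockout hearts miR-499-5p made up 77.8% ± 4.13 of the counts of the 3, miR-208a-3p 14.5% ± 3.24 and miR-208b-3p 7.73% ± 1.21. In control hearts these shares were 78.6% ± 6.78, 16.0% ± 5.81 and 5.35% ± 2.33. The summed level of the 3, which share bases 2 to 7, was 3038 ± 970 CPM in knockout and 3788 ± 1247 CPM in control hearts.

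**Figure D1:**
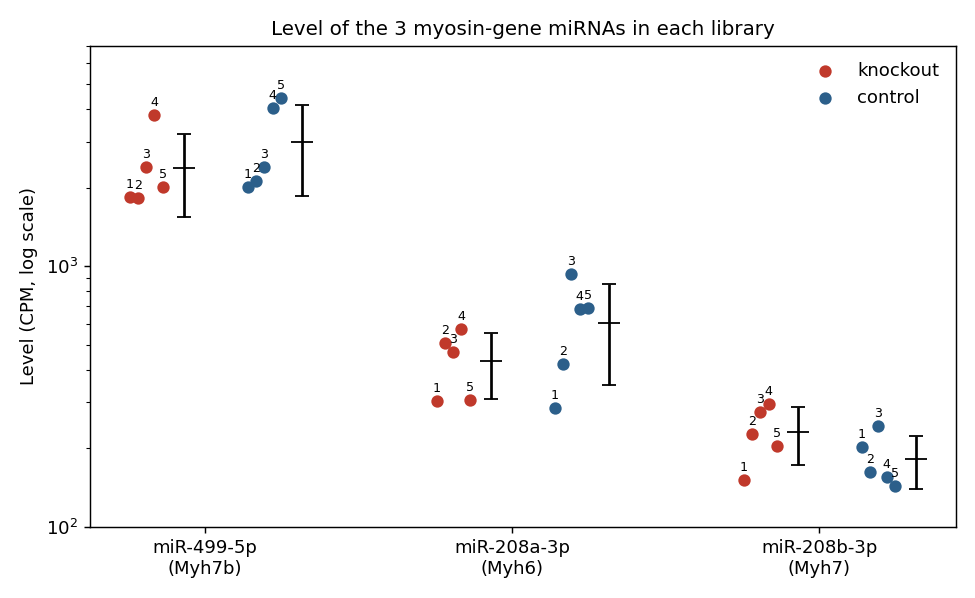
Level of miR-499-5p, miR-208a-3p and miR-208b-3p in each library (CPM, log axis), with knockout libraries in red and control libraries in blue, numbered by replicate; bars are mean ± SD (n = 5 per group). The 3 miRNAs keep their order in every library, and the groups overlap for each: miR-208a-3p spans 303 to 571 CPM in knockout and 286 to 932 CPM in control libraries.

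The comparison of genotypes asks whether loss of CITED4 under pressure load goes with a change in these miRNAs. Mean levels of miR-208a-3p and miR-499-5p were lower in knockout hearts, at 0.715 and 0.791 of the control level, and that of miR-208b-3p was higher, at 1.27 of it. None of the 3 passed edgeR's quasi-likelihood test, at an adjusted p of 0.64 each. Over all miRNAs tested, 53.2% had a higher mean in knockout hearts and 46.8% a lower one (64.8% higher with library totals only). The 2 groups of libraries did not overlap for 0 of the 3, against 0% of all miRNAs with knockouts above and 0.656% with knockouts below. Of the 457 miRNAs tested, 0 were called higher and 0 lower (0% in each direction), and DESeq2 and limma-voom also called 0. At an unadjusted p under 0.05, 0 of the 3 were found, against 2.84% of all miRNAs with knockouts higher and 3.50% with knockouts lower, 29 in all. Without a low-count filter edgeR put 102 of 1105 miRNAs under that level. They included miR-208a-3p, whose unadjusted value was 0.048 (edgeR's adjusted p = 0.53), and miR-208b-3p, at 0.049 (edgeR's adjusted p = 0.54). With 1 library left out, edgeR's unadjusted p fell under 0.05 for miR-208a-3p without control replicate 1 (0.017). It did so for miR-208b-3p without knockout replicate 1 (0.021) or control replicate 3 (0.026), and for miR-499-5p without knockout replicate 4 (0.042), and the lowest of edgeR's adjusted p-values in these 4 fits was 0.25. With all libraries, DESeq2 had 45 of 1105 and limma-voom 23 of 457 under an unadjusted 0.05.

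miR-208a-3p, the miRNA of the adult myosin gene, was at 303, 508, 468, 571 and 306 CPM in knockout replicates 1 to 5. In control replicates 1 to 5 it was at 286, 422, 932, 685 and 692 CPM. Control replicates 3 to 5 were above all knockout libraries, and control replicate 1 was below all of them, so the groups overlapped. The log2 fold change was -0.48 ± 0.29 (SE), with a 95% interval from -1.11 to 0.14 and an unadjusted p of 0.12 in edgeR's test. Each of the 5 knockout values was under the control mean. The log2 fold change depended on single libraries: it was -0.25 without control replicate 3 and -0.66 without control replicate 1.

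miR-208b-3p, the miRNA of the fetal myosin gene, was at 151, 226, 276, 296 and 204 CPM in knockout replicates 1 to 5. In control replicates 1 to 5 it was at 202, 163, 244, 155 and 143 CPM. The groups overlapped: knockout replicates 3 and 4 were above every control, while the other knockouts were within the control range. The log2 fold change was 0.35 ± 0.20 (SE), with a 95% interval from -0.09 to 0.78 and an unadjusted p of 0.11 in edgeR's test. With 1 library left out it ranged from 0.25 to 0.51.

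miR-499-5p, which comes from Myh7b and is known as a muscle miRNA of slow fibres and heart, was at 1837, 1820, 2396, 3815 and 2013 CPM in knockout replicates 1 to 5. In control replicates 1 to 5 it was at 2018, 2127, 2400, 4054 and 4418 CPM. Knockout replicate 4 and control replicates 4 and 5 were high, and the other 7 libraries lay between 1820 and 2400 CPM. The log2 fold change was -0.34 ± 0.27 (SE), with a 95% interval from -0.92 to 0.25 and an unadjusted p of 0.23 in edgeR's test. It was -0.56 without knockout replicate 4, -0.20 without control replicate 4 and -0.14 without control replicate 5. Scaling by library totals only gave -0.19 and moved the median of all miRNAs to 0.14, against 0.03 with TMM. Relative to that median, miR-499-5p was at -0.32 with library totals and -0.37 with TMM, miR-208a-3p at -0.51 with either scaling, and miR-208b-3p at 0.25 and 0.32.

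The ratio of miR-208b-3p to miR-208a-3p was higher on average in knockout hearts, but the difference did not pass the test. It was 0.498, 0.444, 0.590, 0.518 and 0.667 in knockout replicates 1 to 5. In control replicates 1 to 5 it was 0.708, 0.385, 0.262, 0.226 and 0.207. All 5 knockout ratios were above those of control replicates 2 to 5, and control replicate 1 was above every knockout library. Taken as shares, miR-208b-3p was 30.8% to 40.0% of the miR-208a-3p and miR-208b-3p counts in knockout libraries and 17.1% to 41.5% in control libraries. Counting error was small beside this spread: the share was 41.5% in control replicate 1, with an exact 95% binomial interval (Clopper-Pearson) of 40.2% to 42.8%, and 17.1% in control replicate 5, with 16.2% to 18.0%. Such intervals cover counting error only, since reads are not independent molecules.

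On the log2 scale the ratio was -0.89 ± 0.23 in knockout and -1.65 ± 0.73 in control hearts, a difference of 0.75, or 1.68-fold. The exact two-sided permutation test gave p = 0.079, where 5 libraries against 5 allow 0.0079 at the smallest. All 5 knockout libraries were above the control mean, and the SD was larger among controls. Without control replicate 1 the difference was 1.04 and the groups no longer overlapped (exact permutation p = 0.0079, the smallest that 5 against 4 allow). Leaving out any other single library gave differences from 0.59 to 0.82, none of which passed.

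**Figure D2:**
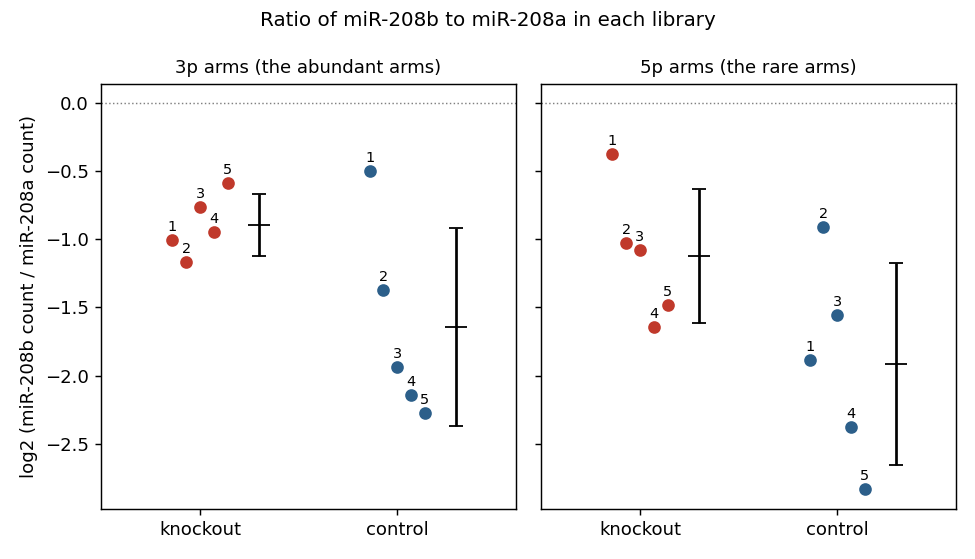
Log2 ratio of miR-208b to miR-208a counts in each library for the 3p arms (left) and the 5p arms (right), with knockout libraries in red and control libraries in blue, numbered by replicate; bars are mean ± SD (n = 5 per group). For the 3p arms the knockout libraries lie between -1.17 and -0.58 and control replicate 1, at -0.50, is the only control above them.

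**Figure D3:**
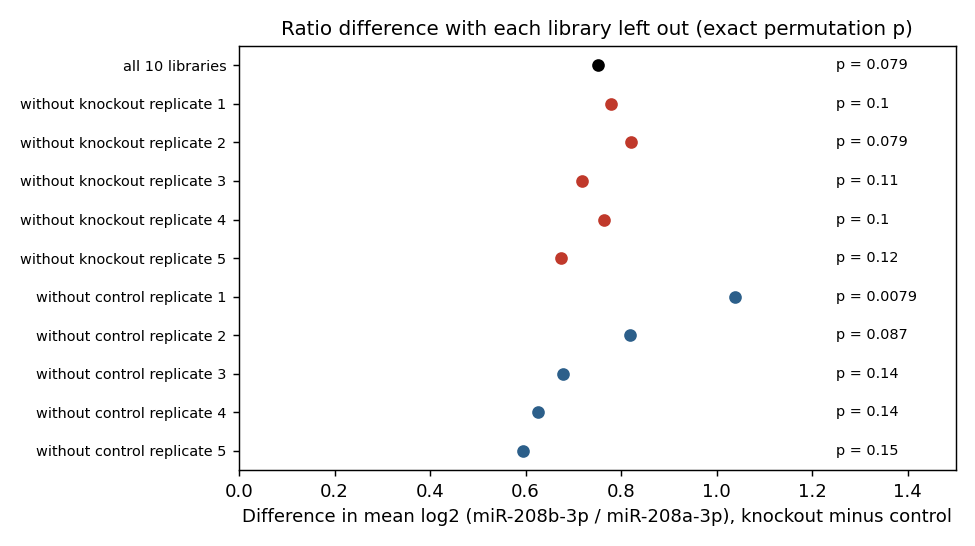
Difference between knockout and control in mean log2 ratio of miR-208b-3p to miR-208a-3p with all 10 libraries (black) and with each library left out, a knockout (red) or a control (blue), and the exact two-sided permutation p at the right. Each difference is above 0, from 0.59 to 1.04, and leaving out control replicate 1 gives the single p under 0.05.

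The other arm of each hairpin is a separate count from the same transcript. Per library, miR-208a-5p had 113 to 278 counts, miR-208b-5p 38 to 130 and miR-499-3p 47 to 158, so their counting error reached 16.2%. The mean of miR-208b-5p was higher in knockout hearts, at 7.06 ± 1.66 CPM against 5.91 ± 1.22 CPM in controls. That of miR-208a-5p was lower, at 15.9 ± 6.57 CPM in knockouts against 22.9 ± 7.57 CPM in controls. miR-499-3p was at 6.94 ± 3.42 CPM in knockouts and 12.3 ± 6.36 CPM in controls. Their log2 fold changes were 0.25 ± 0.24, -0.52 ± 0.29 and -0.82 ± 0.41 (SE), each of the sign of the abundant arm, and none passed edgeR's test (adjusted p = 0.67, 0.64 and 0.64).

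The ratio of miR-208b-5p to miR-208a-5p was 0.770, 0.490, 0.474, 0.320 and 0.358 in knockout replicates 1 to 5. In control replicates 1 to 5 it was 0.271, 0.531, 0.341, 0.192 and 0.140. The mean log2 ratio was -1.12 ± 0.49 in knockout and -1.91 ± 0.74 in control hearts, a difference of 0.79, which was not tested. Control replicate 1, the control with the highest ratio of the 3p arms, was below control replicates 2 and 3 for the 5p arms. In this library miR-208a-3p was 15.1 times as abundant as miR-208a-5p, against 21.1 to 46.1 times in the other controls and 21.6 to 34.7 times in knockouts. For miR-208b the 3p arm was 33.8 ± 9.55 times as abundant as the 5p arm in knockout and 31.2 ± 6.75 times in control hearts. For miR-499 the 5p arm was 370 ± 113 times as abundant as the 3p arm in knockout and 286 ± 127 times in control hearts.

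The other ratios among the 3 were compared by their values alone. miR-499-5p was 5.60 ± 1.29 times as abundant as miR-208a-3p in knockout hearts and 5.40 ± 1.74 times in control hearts. Against miR-208b-3p it was 10.3 ± 2.13 times as abundant in knockout hearts and 18.0 ± 9.85 times in control hearts. In control replicates 4 and 5 this ratio was 26.1 and 30.9, while the knockouts lay between 8.05 and 12.9 and control replicates 1 to 3 between 9.84 and 13.1.

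Across the 10 libraries miR-208a-3p and miR-499-5p had a positive correlation that did not pass. Pearson's r of their log2 CPM was 0.63 (permutation test, p = 0.052, adjusted p = 0.16 over 3 pairs) and Spearman's rho 0.71 (permutation p = 0.027). Without control replicates 1 and 3, the libraries farthest from the median of miR-208a-3p, r was 0.83 (exact permutation p = 0.015, adjusted p = 0.045, n = 8), and without control replicate 3 alone it was 0.82 (exact permutation test, adjusted p = 0.035, n = 9). As deviations from the mean of each genotype r was 0.58, and with library totals only it was 0.50. miR-208b-3p had r = 0.13 with miR-208a-3p (permutation p = 0.71, adjusted p = 0.74, rho = 0.13 with permutation p = 0.73), with -0.01 without control replicates 1 and 3 (n = 8) and 0.38 as deviations from genotype means. With miR-499-5p it had r = -0.12 (permutation p = 0.74, adjusted p = 0.74, rho = -0.08 with permutation p = 0.84), and -0.19 without knockout replicate 4 and control replicate 5 (n = 8). Each genotype has 5 libraries, too few for an r of its own, and the miRNAs of a library share its scaling and tissue makeup.

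Among the other tested miRNAs, those with a pattern most like each of the 3 were ranked by Pearson's r of log2 CPM over the 10 libraries, as a description. For miR-208a-3p they were miR-1a-1-5p (r = 0.93), an arm of a miR-1a hairpin, and miR-101a-3p (0.92), miR-450a-5p (0.91), miR-30b-5p (0.91) and miR-106b-5p (0.90). miR-1a-1-5p was at 18.6 ± 4.15 CPM in knockout and 25.1 ± 7.94 CPM in control hearts, and miR-101a-3p at 506 ± 158 CPM in knockout and 719 ± 320 CPM in control hearts. For miR-499-5p they were miR-23a-3p (0.97), miR-30c-1-3p (0.94), miR-192-5p (0.94), miR-139-5p (0.92) and miR-30a-3p (0.91). miR-23a-3p, a miRNA linked to cardiac hypertrophy in mice, was at 765 ± 154 CPM in knockout and 892 ± 157 CPM in control hearts. For miR-208b-3p the nearest was miR-153-3p (0.71), at 2.15 ± 0.81 CPM in knockout and 1.67 ± 0.85 CPM in control hearts. It was followed by miR-99a-5p (0.62), miR-100-3p (0.62), let-7e-3p (0.58) and miR-466c-5p (0.57). miR-466c-5p was rare, at 1.00 ± 0.62 CPM in knockout and 1.07 ± 0.34 CPM in control hearts. Each of these lists holds the highest r among all other tested miRNAs, and how high such a picked r would be by chance was not tested. The median r over all other tested miRNAs was -0.07, 0.01 and 0.01 for miR-208a-3p, miR-499-5p and miR-208b-3p.

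Other muscle miRNAs were read from a list of 8, linked to heart or skeletal muscle. It holds the skeletal muscle marker miR-206-3p, and miR-486a-5p, which is also in the erythroid list. Of the 8, 7 had a lower and 1, miR-206-3p, a higher mean in knockout hearts. Their median log2 fold change was -0.44 against 0.03 over all 457 miRNAs tested. None passed edgeR's test, and 2, both lower, had an unadjusted p under 0.05, against 3.50% of all miRNAs tested. These were miR-133a-3p, at 1177 ± 211 CPM in knockout and 1620 ± 340 CPM in control hearts, and miR-133b-3p, at 291 ± 70.4 CPM in knockout and 430 ± 124 CPM in control hearts. Both are muscle miRNAs, encoded beside members of the miR-1 and miR-206 family. The counts of miR-486a-5p, another of the 8, were identical to those of miR-486b-5p, so these 2 cannot be told apart. The numbers of higher and lower means in this list and among the hairpin arms were the same with library totals only and with DESeq2. Over the 10 libraries miR-208a-3p had r = 0.83 with miR-133a-3p, miR-499-5p 0.77 and miR-208b-3p -0.04. With miR-1a-3p, the main muscle miRNA, miR-208a-3p had r = 0.40, miR-499-5p 0.85 and miR-208b-3p -0.18. The summed level of the 8 muscle miRNAs was 230918 to 402967 CPM in knockout and 253944 to 524542 CPM in control libraries, highest in control replicates 4 and 5, and most of it was miR-1a-3p. In RNA of a whole heart, fewer muscle cells and less of a miRNA per cell cannot be told apart.

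**Figure D4:**
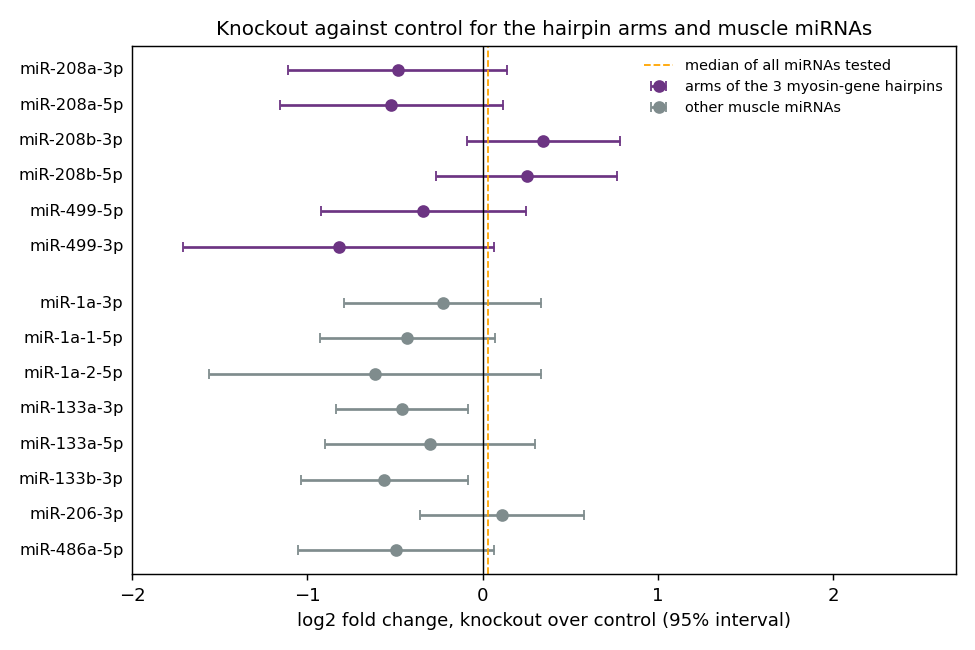
Log2 fold change, knockout over control, with its 95% interval from edgeR's test for both arms of the 3 myosin-gene hairpins (purple) and 8 other muscle miRNAs (grey); the dashed line is the median of all 457 miRNAs tested, 0.03. The intervals of the 6 hairpin arms all hold 0, and the miR-208b arms alone among those 6 lie above it.

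Fibroblast miRNAs were set beside the ratio, library by library. In a list of 6 fibroblast and mesenchymal miRNAs, 6 had a higher mean in knockout hearts, with a median log2 fold change of 0.29 against 0.03 over all miRNAs tested. In edgeR's test 0 of them passed, and 0 had an unadjusted p under 0.05. Its defining marker miR-199a-5p was at 926 ± 347 CPM in knockout and 708 ± 404 CPM in control hearts. No member was at 0 in any library, and most of the summed level was miR-21a-5p, at 77287 ± 25544 CPM in knockout and 52572 ± 28415 CPM in control hearts. The list is not specific to fibroblasts: miR-21a-5p, miR-199a-5p, miR-199b-5p and miR-214-3p are also in the list of pressure overload miRNAs below. Its member miR-145a-3p is also in the smooth muscle list. The other arm, miR-145a-5p, had a lower mean in knockout hearts, at 453 ± 41.4 CPM against 536 ± 128 CPM in controls. The summed level of the 6 was 85748, 111421, 69120, 41659 and 91145 CPM in knockout replicates 1 to 5. In control replicates 1 to 5 it was 88565, 84104, 32166, 37772 and 30499 CPM. Control replicates 1 and 2, with the 2 highest ratios of miR-208b-3p to miR-208a-3p among controls, also had the 2 highest fibroblast sums among them, and control replicates 3 to 5 were low in both. Among knockouts, replicate 2 had the highest fibroblast sum and the lowest ratio. Knockout replicate 4 had a fibroblast sum close to that of control replicate 4 and a ratio of 0.518 against 0.226 in that control. The part of tissue makeup in the ratio was not tested.

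**Figure D5:**
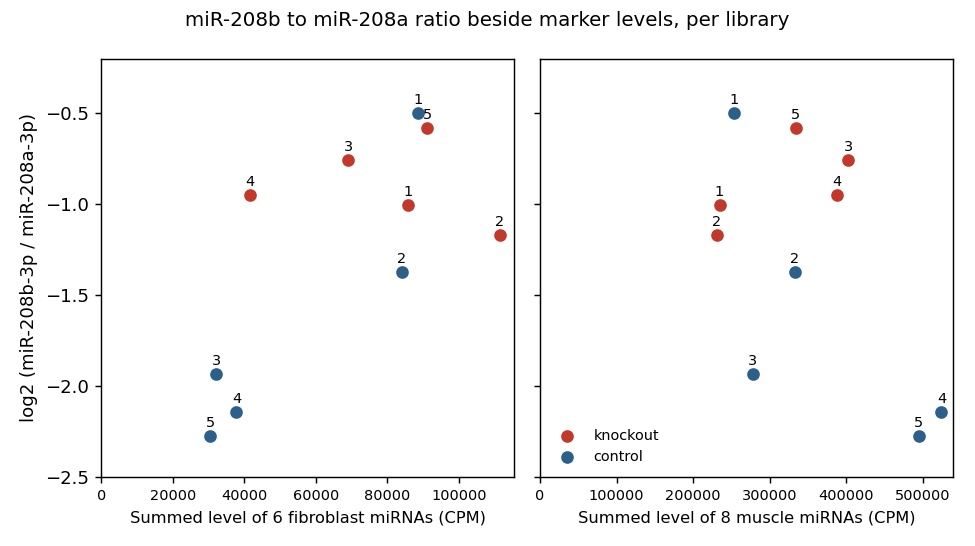
Log2 ratio of miR-208b-3p to miR-208a-3p (vertical axis) against the summed level (CPM) of 6 fibroblast miRNAs (left) and 8 muscle miRNAs (right), with knockout libraries in red and control libraries in blue, numbered by replicate. Control replicates 3, 4 and 5 combine the 3 lowest ratios with fibroblast sums of 30499 to 37772 CPM.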

How the data were processed

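Small RNA libraries of 5 CITED4 knockout and 5 floxed control hearts were read from 2 deposited tables of 1139 miRNAs. The first holds raw counts per mature miRNA, which the authors did not normalize. The other table is a linear signal deposited by the authors: each value is the count divided by 1 factor per library, equal to the DESeq2 size factor computed here. Per the submitters' processing notes, cutadapt 1.10, Bowtie, STAR, DESeq2 and GRCm38 were used, with no role given for each. Not given in the sources used here are the annotation release, the use of molecular identifiers and how reads matching more than 1 miRNA were counted. Levels of miR-199a-3p and miR-199b-3p were identical, as were those of let-7a-1-3p and let-7c-2-3p, so the miRNAs tested hold repeated values. Whether such reads were counted in full for each miRNA or split is not known. miR-208a-3p and miR-208b-3p differ at 3 bases, so a rule that tolerates mismatches could move reads between them.

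Columns were matched to libraries by genotype and replicate number in the titles. filterByExpr kept 457 miRNAs, with 99.99% of the counts. Knockout was compared with control by edgeR 4.0.16 (quasi-likelihood, TMM, Benjamini-Hochberg over 457 miRNAs, threshold 0.05), in R 4.3.3 with limma 3.58.1 and DESeq2 1.42.0. Standard errors are the log2 fold change over the square root of F. Correlations used log2 CPM with a prior count of 2 and 100000 resamples. The main edgeR fit and the permutation tests were tried on simulated data, and the alternative fits were not. The 3 miRNAs, the lists and the rule for named miRNAs (the 3, their other arms, the lists, and for each the 5 miRNAs with the highest r) were chosen with earlier results of these data known. Replicates were checked for repeated libraries, and each pair within a genotype differed beyond sampling noise (lowest chi-square per degree of freedom 119.6). The pairs were not equally far apart. Control replicates 4 and 5 were at 119.6 and control replicates 1 and 2 at 260, against 1093 to 2362 in the other control pairs. Knockout pairs ran from 253 (replicates 1 and 2) to 2647 (replicates 2 and 4). Alternatives were library totals only, library totals without the 5 most abundant miRNAs, no filter or a stricter one (at least 10 CPM in 5 libraries), DESeq2, limma-voom, limma on the deposited normalized values plus 1, a replicate block, and leaving out each library. Ratio alternatives were 1 added count, the deposited values, medians and shares.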

Additional observations from a re-analysis of the deposited data

Results flagged for a closer look

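In 72 groups of 5 libraries (36 values in each genotype), 3 had a library whose gap to its nearest neighbour was over 0.71 of the group's range, where chance gives about 1 in 20, or 3.6. That number takes the values as independent and, within a group, as normally distributed. Many of them are correlated, and nearly all were CPM or ratios not on a log scale, so the number is only a rough guide. Knockout replicate 4 had 3815 CPM of miR-499-5p, against 1820 to 2396 CPM in the other knockouts (0.711 of the range). The same library had 109 CPM of miR-139-5p, 1 of the 5 miRNAs most like miR-499-5p, against 72.9 to 77.6 CPM in the other knockouts (0.870). Because miR-139-5p was picked by its correlation with miR-499-5p over these libraries, its flag is not separate from that of miR-499-5p. Control replicate 5 had 3.64 CPM of miR-100-3p, 1 of the 5 most like miR-208b-3p, against 7.14 to 8.15 CPM in the other controls (0.776).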

How the results depend on the processing

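The 18 alternative fits called 0 of the miRNAs tested, and the log2 fold changes of miR-208a-3p, miR-208b-3p and miR-499-5p kept their signs in each. With all libraries they ranged from -0.49 to -0.35, 0.33 to 0.44 and -0.34 to -0.19, and with 1 library left out from -0.66 to -0.25, 0.25 to 0.51 and -0.56 to -0.14. Adjusted p values of the 3 over these fits ran from 0.25 to 0.99. The 29 miRNAs at an unadjusted p under 0.05 became 14 with library totals only, 102 of 1105 without a filter, 16 with the stricter filter, 45 with DESeq2, 72 with the replicate block, and 6 to 84 with 1 library left out. A replicate block was fitted although the labels do not say what a replicate number marks. It gave -0.41, 0.34 and -0.31 for miR-208a-3p, miR-208b-3p and miR-499-5p. The unadjusted p in edgeR's test was 0.068, 0.083 and 0.097 with the block, against 0.12, 0.11 and 0.23 without it. For the ratio the block gave a sign-flip p of 0.19 (5 pairs allow 0.0625 at the smallest). No call changed. Same-number libraries correlated from -0.12 to 0.45 in their deviations, and 4 of 10 correlated best with their own number.

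The ratio of miR-208b-3p to miR-208a-3p differed by 0.59 to 1.04 (log2) with 1 library left out and passed only without control replicate 1. With 1 added count, the deposited values or shares the exact p stayed at 0.079, and with medians it was 0.12. The correlation of miR-208a-3p with miR-499-5p was 0.58 to 0.82 with 1 library left out, passing without control replicate 3 (0.82), and 0.83 without the 2 farthest libraries, but 0.50 with library totals only (adjusted p = 0.42) and 0.53 with the replicate block (0.36). That of miR-208a-3p with miR-208b-3p turned sign without the 2 farthest (-0.0066) and with the replicate block (-0.19), was 0.38 as deviations from genotype means, and ranged from -0.029 to 0.33 with 1 library left out. That of miR-208b-3p with miR-499-5p turned sign as deviations from genotype means (0.047) and ranged from -0.44 to 0.18. The causes were not tested. Depth limited the rare arms, with as few as 38 counts, more than the 3 abundant ones.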

Other observations

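miRNAs widely linked to pressure overload were split in direction: of 18, 9 had a higher and 9 a lower mean in knockout hearts, with a median log2 fold change of 0.02 against 0.03 over all miRNAs tested, and 0 passed edgeR's test, with 2 at an unadjusted p under 0.05. With library totals only, 13 had a higher and 5 a lower mean. The median log2 fold change was then 0.14 in this list and 0.14 over all miRNAs tested. That scaling gave 64.8% of all miRNAs tested a higher mean, against 53.2% with TMM, which applies to the lists below as well. The summed level of the 18 was 90269 to 169966 CPM in knockout and 76925 to 146358 CPM in control libraries. Of 4 endothelial miRNAs tested, 1 had a higher and 3 a lower mean, and 2 and 2 with library totals only. The main endothelial miRNA miR-126a-3p was at 20703 ± 2610 CPM in knockout and 22874 ± 2497 CPM in control hearts. Of 4 smooth muscle miRNAs, 2 had a higher and 2 a lower mean, and 3 and 1 with library totals only. Here miR-143-3p was at 30307 ± 2671 CPM in knockout and 30858 ± 2262 CPM in control hearts. Of 6 leukocyte miRNAs, 2 had a higher and 4 a lower mean, and 3 and 3 with library totals only. The leukocyte miRNA miR-142a-3p was at 332 ± 58.8 CPM in knockout and 304 ± 43.9 CPM in control hearts, while its other arm miR-142a-5p was at 93.7 ± 10.8 CPM in knockout and 112 ± 11.7 CPM in control hearts. miR-146a-5p was at 404 ± 131 CPM in knockout and 513 ± 105 CPM in control hearts and miR-150-5p at 173 ± 57.7 CPM in knockout and 223 ± 46.2 CPM in control hearts, and the median log2 fold change of the 6 was -0.17. Of 3 erythroid miRNAs tested, 3 had a lower mean, with miR-144-3p at 311 ± 182 CPM in knockout and 485 ± 289 CPM in control hearts. Of 8 miRNAs of epithelium and other organs, 4 had a higher and 4 a lower mean, with the liver miRNA miR-122-5p at 52.7 ± 10.3 CPM in knockout and 60.7 ± 31.9 CPM in control hearts. Of 3 skeletal muscle miRNAs, 1 had a higher and 2 a lower mean. None of these passed edgeR's test, and 1, the skeletal muscle miRNA miR-133b-3p, had an unadjusted p under 0.05. Some lists share members, such as miR-486a-5p in the erythroid and skeletal muscle lists.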
